A study of Saccharomyces cerevisiae with 16 samples.

Results

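Genes of the mitochondrial ribosome were taken as those whose single gene symbol on the yeast slides carried an MRP, MRPL or MRPS name followed only by a number, an RSM name followed only by a number, or 1 of a few older names (IMG1, IMG2, YML6 and YMR31, of which only IMG1 was among the spots that name a single gene). The rule used names and no measured value. It found 49 of the 3127 genes tested, measured by 54 spots, and all 49 had an entry in RefSeq's gene table. RefSeq's unified ribosomal protein names placed 26 of them in the large subunit and 21 in the small subunit. RSM22, which has no unified name there, was counted with the small subunit by its family name, which made 22. MRP8 (YKL142W), a protein of unknown function, also has no unified name, so nothing in that table places it in a ribosome, and it is given apart. By those names 31 code for proteins with a bacterial counterpart and 16 for proteins specific to mitochondria, and RSM22 and MRP8 are in neither class.

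All RNA came from the wild-type Saccharomyces cerevisiae strain CDY59, grown in YPD, a rich glucose medium, to an optical density of 0.5. The untreated RNA was from cells so grown, without hydroxyurea. The treated RNA was from cells then kept in 200 mM hydroxyurea, an inhibitor of ribonucleotide reductase that slows DNA replication, for 1, 2, 4 or 6 h. Treated and untreated RNA shared each 2-colour slide. There were 2 slides for each of the 4 times, called here the channel 1 slide and the channel 2 slide after the channel that held the treated RNA, and each was read 2 times. Untreated cultures grown on for the same hours are not described. Nothing in the labels shows that both slides of a time came from separate cultures. Standard errors and p-values measure how far the slides of a time differ beyond a channel effect shared by all times. That spread may be technical, and it leaves out the differences between times and the shared channel effect itself.

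The mitochondrial ribosome translates the few proteins encoded in mitochondrial DNA, nearly all of them membrane subunits of the respiratory chain and of ATP synthase. Its protein subunits, apart from 1 in yeast, are encoded in the nucleus, translated in the cytosol and imported. The large subunit joins amino acids and carries the peptide exit tunnel, and the small subunit binds and decodes the message. Budding yeast grown on glucose ferments and represses much of its respiratory machinery.

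Values are log2 ratios of treated over untreated RNA, centred so that 0 is the median gene of each reading, and the base of the logarithm is taken as 2. The deposited ratios do not name their numerator. The direction was set so that RNR2 and RNR4, textbook hydroxyurea-induced genes, were higher in treated cells, and is therefore likely and not established. Across all genes the Pearson correlation of both slides of 1, 2, 4 and 6 h was -0.08, -0.03, 0.50 and 0.58, and across the 49 genes it was -0.41, 0.02, 0.36 and 0.31. Slides of different times with the same orientation had a median correlation of 0.564 over 12 pairs, and those with opposite orientation 0.127 over 12 pairs. Genes are not independent, so these values carry no test. A lower message level in each cell and a smaller share of cells with the message cannot be told apart in such RNA.

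Averaging the 4 times asks how the mitochondrial ribosome genes stood under hydroxyurea as a whole. The genes moved little: no gene of the 49 had an absolute mean log2 ratio of 0.5 or more, which 333 of the 3127 genes had. In the limma model with Benjamini-Hochberg adjustment over all genes, 5 of the 49 were lower and 2 higher. Over all genes 18.8% passed, 11.8% lower and 6.97% higher, so 7 of 49 (14.3%) is no more than the background. At an unadjusted p under 0.05 there were 11 of the 49, against 33.2% of all genes. The median of the 49 genes was -0.07, against 0.01 for all genes, and their means ran from -0.44 to 0.45. Of the 49 means, 37 lay below 0, while 48.2% of all genes had a mean below 0. In the uncentred deposited values, where the median of all genes was 0.20 and that of the 49 genes 0.12, 0 of the 49 passed as lower and 4 as higher. The 5 genes called lower kept means below 0 there, from -0.25 to -0.13, and lost the call. That fit also gave every gene the same variance, and which of these moved the calls was not tested.

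**Figure D1:**
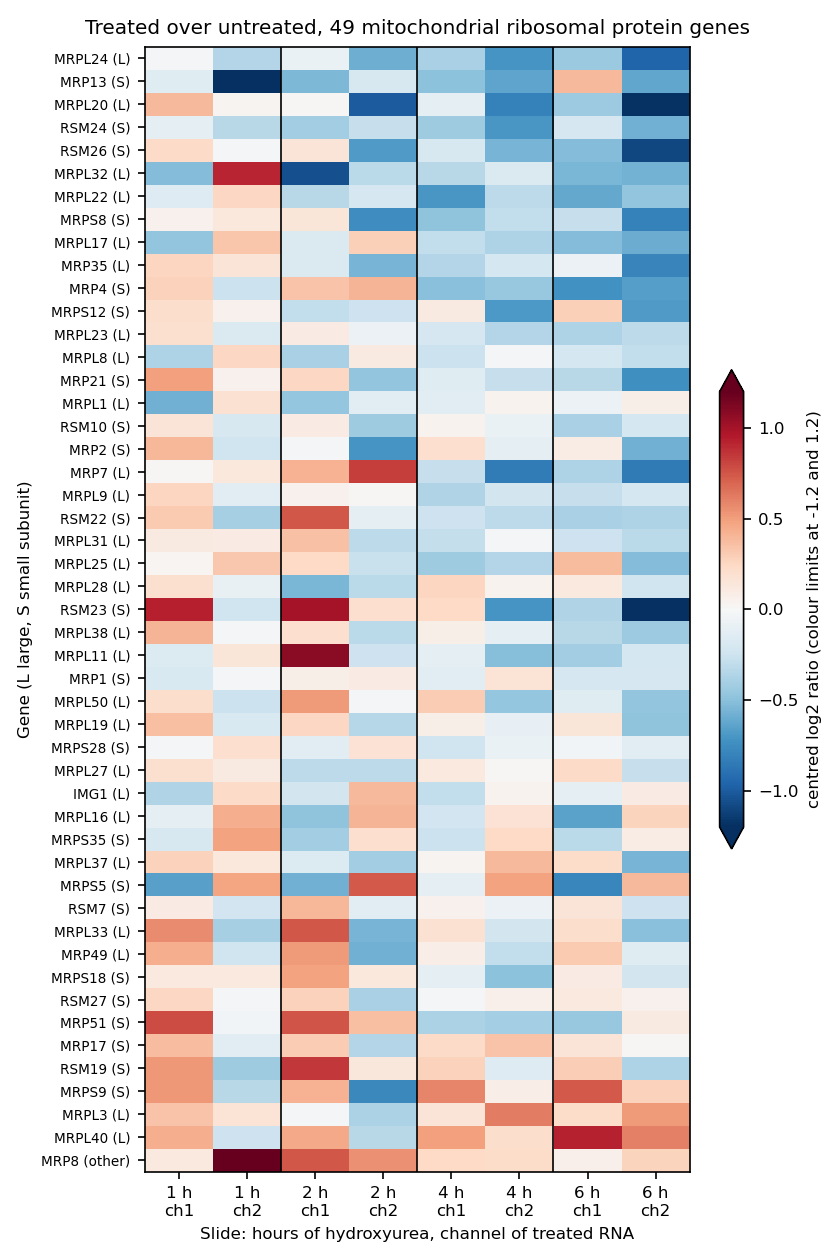
Centred log2 ratio of treated over untreated RNA (colour) of the 49 genes (rows, ordered by their mean) on the 8 slides (columns, by hours of hydroxyurea and channel of the treated RNA). Neighbouring slides of a time often differ in colour at 1 h and 2 h, where 32 and 27 genes had opposite signs on the 2 slides, and less often at 4 h and 6 h, with 18 and 19.

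Large-subunit genes included 3 of the 5 that were lower. MRPL24 (YMR193W, the subunit bL28m) stood at -0.03 on the channel 1 slide and -0.36 on the channel 2 slide of 1 h, and in the same order at -0.08 and -0.59 for 2 h, -0.39 and -0.71 for 4 h, and -0.45 and -0.96 for 6 h. All 8 slides were below 0, and the channel 2 slide was the lower one at each time. Its mean was -0.44 ± 0.08 (standard error of the limma model, 8 slides, adjusted p = 0.00629), a ratio of 0.736 if the base is 2. Of the members that passed, it was the gene that kept the call without any 1 of the 8 slides, with a mean from -0.46 to -0.43 and an adjusted p of at most 0.0437.

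MRPL20 (YKR085C, the mitochondria-specific subunit mL58) stood at 0.39 and 0.04 (1 h), 0.02 and -0.995 (2 h), -0.11 and -0.81 (4 h), and -0.44 and -1.19 (6 h), with channel 1 given first as for all genes that follow. Both slides of 4 h and of 6 h were below 0 and both slides of 1 h above. The mean was -0.39 ± 0.08 (limma, adjusted p = 0.0172). Its channel 1 slides averaged -0.03 and its channel 2 slides -0.74. The channel orientation itself passed for MRPL20, with a coefficient of 0.35 (limma, adjusted p = 0.0325). MRPL22 (YNL177C, the subunit uL22m, whose bacterial relative lines the exit tunnel) stood at -0.16 and 0.25, -0.34 and -0.20, -0.70 and -0.32, and -0.62 and -0.47 at the same times. Of its slides, the channel 2 slide of 1 h alone was above 0. Its mean was -0.32 ± 0.08 (limma, adjusted p = 0.0252).

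Small-subunit genes made up the other 2 that were lower, and both code for proteins specific to mitochondria. RSM24 (YDR175C, mS35) stood at -0.12 and -0.33 (1 h), -0.42 and -0.28 (2 h), -0.43 and -0.70 (4 h), and -0.20 and -0.58 (6 h). It was below 0 on all 8 slides, as only MRPL24 also was among the 49 genes (4.57% of all genes were). The mean was -0.38 ± 0.08 (limma, adjusted p = 0.0156). RSM26 (YJR101W, mS42, a relative of manganese superoxide dismutase) stood at 0.23 and -0.01, 0.16 and -0.68, -0.20 and -0.56, and -0.52 and -1.10. It was lower at 4 h and 6 h than at 1 h in both orientations, and its mean was -0.33 ± 0.08 (limma, adjusted p = 0.0282).

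MRP13 (YGR084C, mS44) had the second-lowest mean of the 49 genes and did not pass. Its values were -0.15 and -1.22 (1 h), -0.54 and -0.20 (2 h), -0.49 and -0.64 (4 h), and 0.39 and -0.62 (6 h). The channel 1 slide of 6 h was the 1 slide above 0, and the mean was -0.43 ± 0.13 (limma, adjusted p = 0.0528). Without the channel 2 slide of 2 h it was -0.57 and passed (limma, adjusted p = 0.00926).

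Of the genes that were higher, MRPL40 (YPL173W, the large-subunit protein uL24m) was the one with a ribosomal name in RefSeq. It stood at 0.44 and -0.25 (1 h), 0.45 and -0.34 (2 h), 0.49 and 0.21 (4 h), and 0.93 and 0.61 (6 h). The orientations differed in sign at 1 h and 2 h, and both were above 0 at 4 h and 6 h. Its mean was 0.32 ± 0.08 (limma, adjusted p = 0.0336), a ratio of 1.25 if the base is 2. MRP8, the gene of unknown function, stood at 0.12 and 1.43, 0.75 and 0.55, 0.24 and 0.22, and 0.06 and 0.27. It was above 0 on all 8 slides, the only one of the 49 genes to be so (3.93% of all genes were), with a mean of 0.45 ± 0.13 (limma, adjusted p = 0.0432). Without the channel 2 slide of 1 h its mean was 0.29 and did not pass (limma, adjusted p = 0.102).

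The next genes in order did not pass. MRPL3 (YMR024W, the large-subunit protein mL44) stood at 0.34 and 0.17 (1 h), -0.02 and -0.38 (2 h), 0.16 and 0.62 (4 h), and 0.22 and 0.52 (6 h). It lay below 0 on both slides of 2 h and above 0 on the other 6, with a mean of 0.20 ± 0.09 (limma, adjusted p = 0.175). MRPS9 (YBR146W, uS9m) stood at 0.52 and -0.34, 0.42 and -0.78, 0.59 and 0.08, and 0.74 and 0.28, with a mean of 0.19 ± 0.09 (limma, adjusted p = 0.182). RSM19 (YNR037C, uS19m) stood at 0.52 and -0.43, 0.85 and 0.14, 0.28 and -0.16, and 0.30 and -0.37, with a mean of 0.14 ± 0.08 (limma, adjusted p = 0.249). Both small-subunit genes were higher on the channel 1 slide at all 4 times. RSM19 is next to MRPS12 (YNR036C, uS12m, of the decoding centre) in RefSeq's gene order, the only such neighbours among the 49 genes, and MRPS12 had a mean of -0.16 (limma, adjusted p = 0.312).

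**Figure D2:**
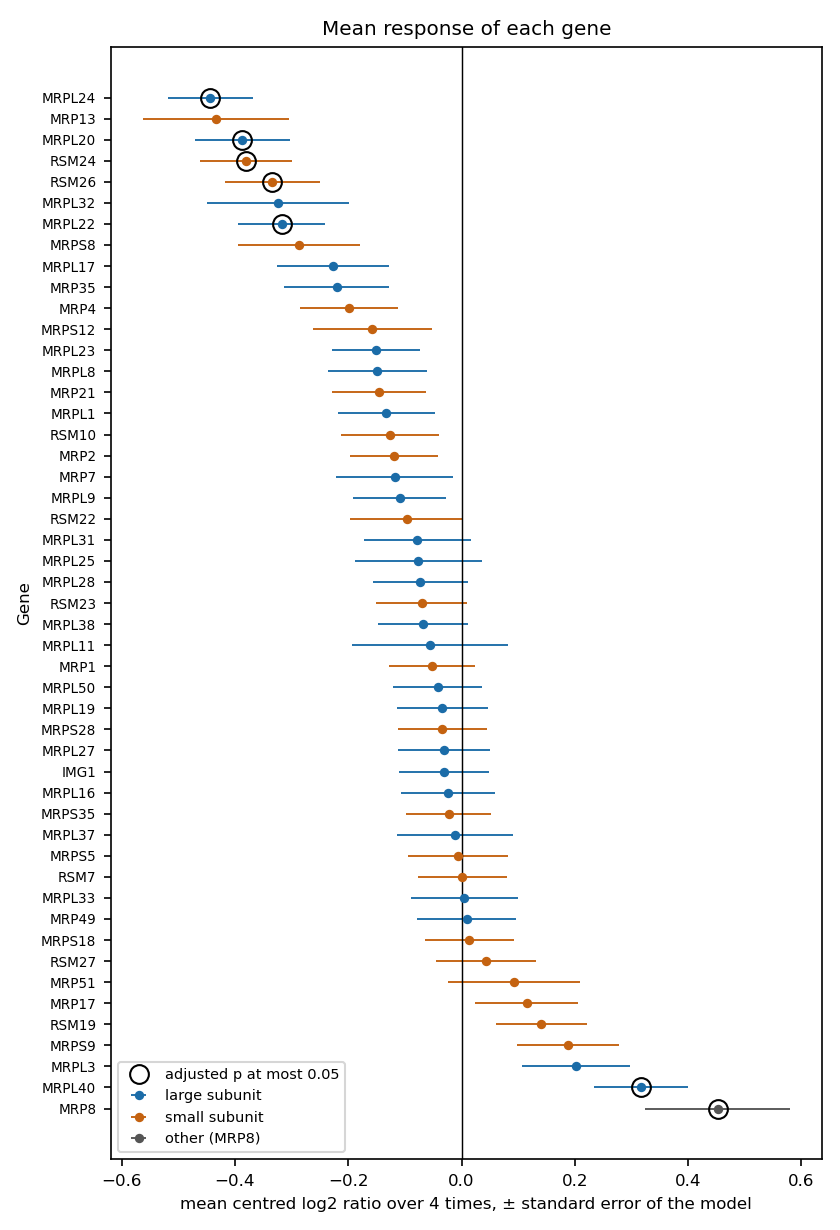
Mean centred log2 ratio over the 4 times with the standard error of the limma model, for the 49 genes, coloured by subunit; open circles mark the 7 genes that passed at an adjusted p of 0.05. The means run from -0.44 for MRPL24 to 0.45 for MRP8, with 37 of 49 below 0.

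Leaving out 1 slide moved the number of calls, among the 49 genes and among all genes alike. Without the channel 1 slide of 1 h, 1 of the 49 genes was lower and 1 higher (limma, 9.37% of all genes called), and without its channel 2 slide 3 and 0 (13.3%). Without the channel 1 slide of 2 h, 6 were lower and 0 higher (15.6%), and without its channel 2 slide 6 and 2 (26%). Without the channel 1 and the channel 2 slide of 4 h, 2 and 1 were lower (13.4% and 11%), and without those of 6 h 2 and 1 (14.4% and 7.71%), with 0 higher in these 4 fits. The means stayed between -0.45 and -0.33 for MRPL20, -0.43 and -0.33 for RSM24, -0.39 and -0.28 for RSM26, -0.34 and -0.30 for MRPL22, and 0.27 and 0.36 for MRPL40, while that of MRP8 ran from 0.29 to 0.62. MRPL20, RSM24, RSM26, MRPL22, MRPL40 and MRP8 lost the call in 5, 4, 6, 6, 7 and 6 of these 8 fits, with adjusted p of up to 0.0853, 0.0891, 0.133, 0.131, 0.168 and 0.131. Each of the 7 called means kept its direction in all 16 alternatives. With no orientation term, or with the slides of a time averaged to 1 value, 0 of the 49 genes passed.

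The remaining genes gave means from -0.32 to 0.12. Among those of the large subunit were MRPL32 (bL32m, which the m-AAA protease matures) at -0.32 and MRPL11 (uL10m) at -0.06. MRPL32 ran from -1.05 on the channel 1 slide of 2 h to 0.92 on the channel 2 slide of 1 h, and MRPL11 from -0.52 to 1.09. The small-subunit gene MRPS5 (uS5m) had a mean of -0.01 with all 4 channel 1 slides below 0 (-0.78 to -0.12) and all 4 channel 2 slides above (0.39 to 0.74). For the channel orientation itself, 10 of the 49 genes passed, against 17.3% of all genes. Its part in the calls named above was not tested beyond the fit with no orientation term.

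Genes of the large subunit had a median of -0.07 in the mean over the times, with 3 lower and 1 higher of 26, and those of the small subunit -0.06, with 2 lower and 0 higher of 22. Genes whose products have a bacterial counterpart had a median of -0.07, with 2 lower and 1 higher of 31. Those of products specific to mitochondria had -0.07 as well, with 3 lower and 0 higher of 16. In the order given, the shares that passed were 15.4%, 9.09%, 9.68% and 18.8%, none above the 18.8% of all genes. Neither division separated the genes in their medians, and the difference between them was not tested.

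The single times address when the response arose. At 1 h the 49 genes had a median of 0.09 and 0 passed in limma, against 0.799% of all genes (0.256% higher, 0.544% lower). Unadjusted p-values under 0.05 numbered 2 there, against 12.1% of all genes. At 2 h the median was -0.04 and 0 passed in limma, against 4.19% of all genes (3.33% higher, 0.863% lower), and 8 had an unadjusted p under 0.05, against 19.7%. At 4 h the median was -0.14 and 0 passed in limma, against 2.81% of all genes (0.608% higher, 2.21% lower), and 6 had an unadjusted p under 0.05, against 16.9%. At 6 h the median was -0.20, and 5 passed, 4 lower and 1 higher, against 6.01% of all genes, 4.35% lower and 1.66% higher. Unadjusted p-values under 0.05 numbered 15 at 6 h, against 26.5% of all genes.

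The slide medians of the 49 genes were 0.19 and -0.01 (1 h), 0.10 and -0.25 (2 h), -0.13 and -0.18 (4 h), and -0.20 and -0.33 (6 h). Both slides were thus below 0 at 4 h and 6 h, and the channel 2 slide was the lower one at every time. Genes below 0 on both slides numbered 4, 13, 23 and 24 for 1, 2, 4 and 6 h. The shares of all genes below 0 on both slides at these times were 21.4%, 20%, 32.2% and 33.5%. Genes above 0 on both slides numbered 13, 9, 8 and 6, against 22.7%, 21.4%, 32.2% and 33.8% of all genes.

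RSM23 (YGL129C, mS29, a GTPase-like protein related to the mammalian death-associated protein DAP3) had the largest absolute value of the 49 genes at 6 h and passed at that time only. It stood at 0.94 and -0.24 (1 h), 1.0 and 0.20 (2 h), 0.24 and -0.71 (4 h), and -0.36 and -1.64 (6 h). Both slides were above 0 at 2 h and both below 0 at 6 h, while 1 h and 4 h were mixed. Its 6 h value was -1.0 ± 0.16 (limma, adjusted p = 0.0132), and its mean over the times was -0.07 (limma, adjusted p = 0.543). Like MRPL20, it was also 1 of the 10 genes that passed for the orientation, with a coefficient of 0.52.

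The other 4 genes called at 6 h also passed in the mean. MRPL20 was at -0.81 ± 0.17 and RSM26 at -0.81 ± 0.17 (limma, adjusted p = 0.0335 for both). MRPL24 was at -0.70 ± 0.15 (limma, adjusted p = 0.037), and MRPL40 at 0.77 ± 0.17 (limma, adjusted p = 0.0395). For each of the 5 genes both 6 h slides lay on the side of the call. Without either slide of 1 h or of 4 h, 2 of the 49 genes were lower and 0 higher at 6 h (limma, 4.83% and 5.56% of all genes called). With a slide of 6 h left out, that time rests on 1 slide, whose spread is taken from the other times. Then 0 of the 49 genes passed by limma, and only 13 (without channel 1) and 0 (without channel 2) of all 3127 genes did, so these fits say little of single genes. The values at 6 h stayed between -0.85 and -0.78 for MRPL20 and between -0.86 and -0.76 for RSM26 over the fits without 1 slide. RSM23 was at -1.15 and -0.85 without the channel 1 and the channel 2 slide of 6 h (limma, adjusted p of 0.116 and 0.419).

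**Figure D3:**
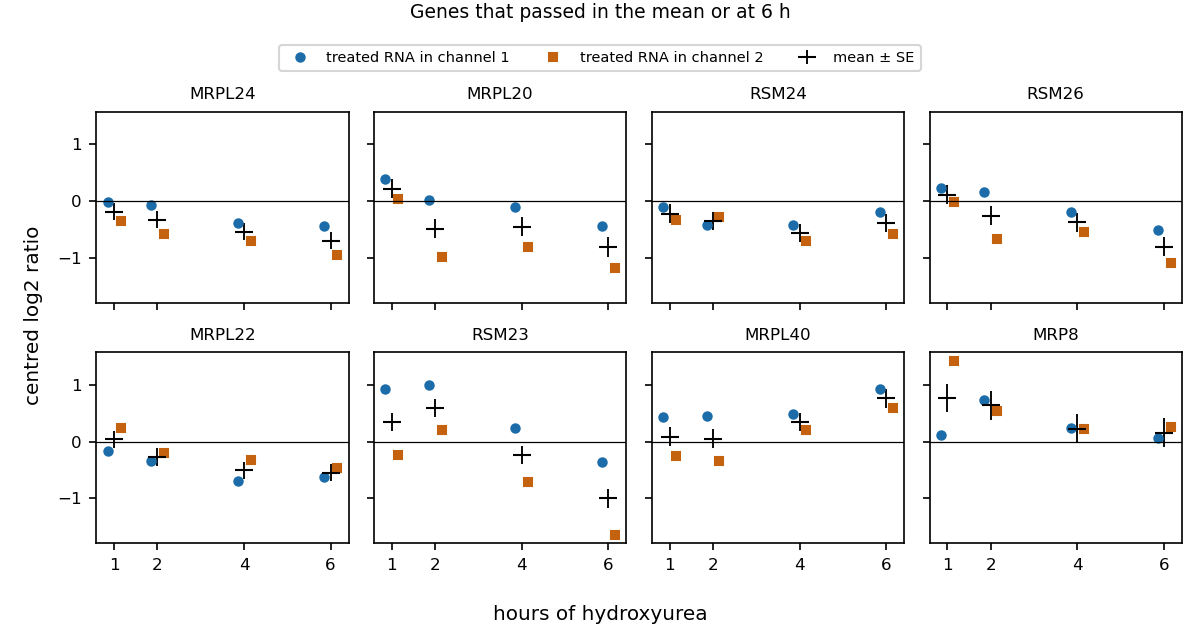
Centred log2 ratio by hours of hydroxyurea for the 8 genes that passed in the mean or at 6 h; circles and squares are the slides with treated RNA in channel 1 and in channel 2, and the black crosses give the model's value at each time ± its standard error. MRPL24, MRPL20, RSM26 and RSM23 have their lowest value at 6 h on both orientations, MRPL40 has its highest there, and MRP8 has its highest slide, 1.43, at 1 h.

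The mean of 4 h and 6 h minus that of 1 h and 2 h addresses whether the response changed with time. The median difference of the 49 genes was -0.18, against -0.03 for all genes. None of the 49 genes passed (limma), while 13 had an unadjusted p below 0.05, and 0% of all 3127 genes passed, with 17.6% below an unadjusted p of 0.05. RSM23 had a difference of -1.09 (limma, adjusted p = 0.0923), and MRP7 (YNL005C, bL27m, whose bacterial relative lies at the peptidyl transferase centre) -0.93 (limma, adjusted p = 0.129). MRP7 ran from 0.01 to 0.83 on the 4 slides of 1 h and 2 h and from -0.85 to -0.28 on the 4 of 4 h and 6 h.

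In 5 of the 49 genes, MRP4, MRP7, MRPL9, MRPL23 and MRPS18, all slides of 4 h and 6 h lay below all slides of 1 h and 2 h, and in 0 the reverse. Over all genes the shares were 3.33% and 3.39%. MRP4 (YHL004W, uS2m) ran from -0.26 to 0.41 early and from -0.73 to -0.46 late, a difference of -0.78 (limma, adjusted p = 0.129). The other 3 differed by -0.32 to -0.40, with adjusted p from 0.253 to 0.333 by limma. The limma F-test across the 4 times passed for none of the 49 genes and 0% of all genes.

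Cytosolic ribosomal protein genes, of which 49 were also measured, stood apart from the mitochondrial set in level. They had 45 lower and 0 higher in the mean, with a median of -0.98, against 5 lower and 2 higher and -0.07. Of all genes 11.8% were lower and 6.97% higher. The cytosolic median lay below the mitochondrial one on all 8 slides, by medians from -0.44 to -1.44 against 0.19 to -0.33. Ribosome biogenesis genes had 22 lower and 0 higher of 45 and a median of -0.44. Among them DBP2 was at -1.15 ± 0.14 (limma, adjusted p = 0.00147), GAR1 at -1.04 ± 0.09 (limma, adjusted p = 0.00027) and MAK21 at -0.99 ± 0.09 (limma, adjusted p = 0.000513). These differences between groups of genes carry no test of their own.

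**Figure D4:**
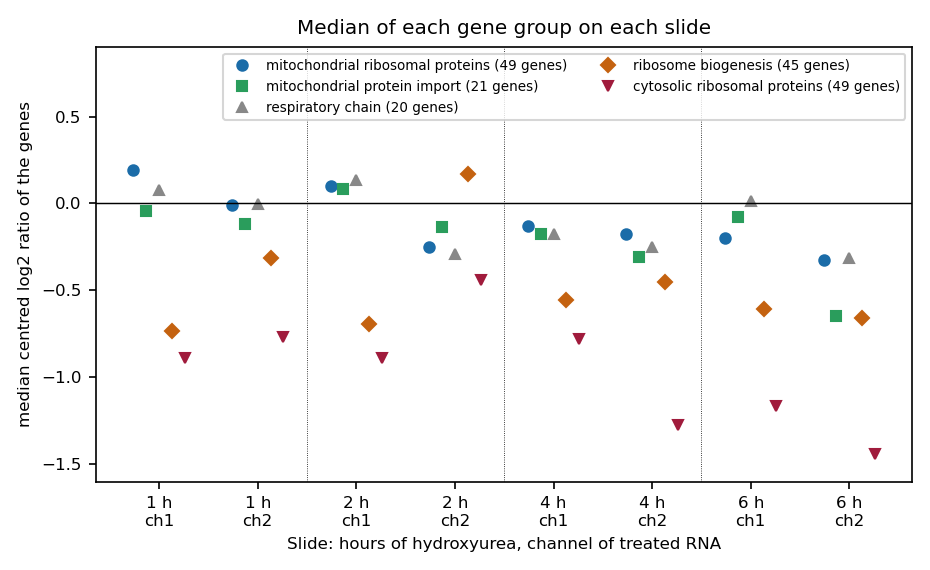
Median centred log2 ratio of 5 gene groups on each of the 8 slides, by hours of hydroxyurea and channel of the treated RNA. The mitochondrial ribosomal protein genes lie between -0.33 and 0.19 and the cytosolic ribosomal protein genes between -1.44 and -0.44.

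Mitochondrial ribosome genes with other names gave values in the same range. Of 10 listed, 7 were measured, with a median of -0.14, 2 lower and 0 higher, against 11.8% lower and 6.97% higher of all genes. MNP1 (YGL068W, the L7/L12-type stalk protein) was at -0.40 ± 0.08 (limma, adjusted p = 0.0152), below 0 on 6 of 8 slides. EHD3 (YDR036C), a hydroxyisobutyryl-CoA hydrolase also found on the small subunit, was at -0.36 ± 0.10 (limma, adjusted p = 0.0451), below 0 on 7 of 8. The small-subunit genes PET123 and NAM9 were at -0.25 and -0.14 and did not pass (limma, adjusted p = 0.0637 and adjusted p = 0.3). They were below 0 on 4 and 5 of 8 slides. MHR1 was at -0.12, below 0 on 4 of 8, and did not pass (limma, adjusted p = 0.425). FYV4 and MRX14 went the other way, at 0.08 and 0.12, each above 0 on 6 of 8 slides. Neither passed (limma, adjusted p = 0.508 and adjusted p = 0.386).

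For the other steps of mitochondrial gene expression the lists were short. In the mean, 18.8% of all genes passed, 11.8% lower and 6.97% higher, and 33.2% had an unadjusted p under 0.05. Of 10 translation factor genes and 7 genes of ribosome assembly or membrane insertion, 0 passed in limma, with medians of -0.02 and 0.02. In that order, 2 and 1 had an unadjusted p below 0.05. Of 5 mitochondrial tRNA synthetase genes 1 was higher, the threonine enzyme gene MST1, at 0.30 ± 0.08 (limma, adjusted p = 0.0326). Of 9 translational activator genes 1 was lower, CBP3, at -0.70 ± 0.16 (limma, adjusted p = 0.0215), which codes for a factor that acts on the cytochrome b message at the ribosome. Of 4 measured genes for mitochondrial DNA upkeep 2 were lower, with a median of -0.27: ABF2, which packages mitochondrial DNA, was at -0.59 ± 0.10 and below 0 on 8 of 8 slides (limma, adjusted p = 0.00658), and CCE1, a Holliday junction resolvase gene, at -0.31 ± 0.08 (limma, adjusted p = 0.0383).

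Protein import genes had 7 lower and 0 higher of 21, with a median of -0.21. Over all genes 18.8% passed in the mean, 11.8% lower and 6.97% higher. The receptor genes TOM20 and TOM70 were at -0.66 ± 0.10 and -0.57 ± 0.09 (limma, adjusted p = 0.00454 and adjusted p = 0.00374), and the chaperone cofactor gene MGE1 at -0.68 ± 0.10 (limma, adjusted p = 0.00378). Of 20 respiratory chain genes 3 were lower and 1 higher, with a median of -0.12. These calls, 20%, were near the share of all genes. RIP1, COR1 and CYT1 of complex III were at -0.51, -0.39 and -0.31 (limma, adjusted p of 0.0432, 0.0282 and 0.05). QCR2, QCR9 and QCR8 of the same complex were at -0.10, -0.01 and 0.00 and did not pass. The hypoxic cytochrome c gene CYC7 was at 0.33 (limma, adjusted p = 0.0349). Of 13 ATP synthase genes 1 was lower, the beta subunit gene ATP2 at -0.44 ± 0.11 (limma, adjusted p = 0.0308), and the median was -0.05. No gene encoded in mitochondrial DNA was among the single-gene spots used here.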

How the data were processed

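As deposited, the values are log ratios, taken here as log2, of both channels of 16 readings with 6912 spots each; the authors' steps before deposit (scanner, background, normalization) are not given in the sources used here. The base is not stated: base 10 would put the largest absolute value, 6.16, beyond a 16-bit scanner, and with natural logs the folds would be larger. Signal over background is unknown, and the number of slides limits the precision. The platform annotation named 1 gene for 3344 spots, several for 387 and none for 3181.

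Ratios were turned to treated over untreated, and the median over single-gene spots was subtracted from every reading. Readings of a slide and spots of a gene were averaged. limma 3.58.1 (R 4.3.3), tested on simulated data, was fitted to 8 slides and 3127 genes with a coefficient per time and 1 for orientation (3 residual and 4.89 prior degrees of freedom), and p-values are two-sided, adjusted over all genes by Benjamini-Hochberg, with a threshold of 0.05. The members, lists and centring were chosen with earlier results of these data known. Named genes were those that passed, the 5 highest and 5 lowest means, and up to 3 per direction of other lists. MRP4, MRP7, MRPL9, MRPL11, MRPL23, MRPL32, MRPS5, MRPS12, MRPS18, PET123, NAM9, MHR1, FYV4 and MRX14 were added after their values were seen. Slides of different times were not paired, as no label numbers them alike. Sequences and positions were not used here.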

Additional observations from a re-analysis of the deposited data

How the results depend on the processing

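The counts of genes lower and higher in the mean over the 4 times, 5 and 2 of 49, moved in many of the 16 alternatives. They were 0 and 4 on values as deposited, where limma gave every gene the same variance and the median gene stood at 0.20, and 0 and 0 both with no orientation term and with the slides of a time averaged. The readings titled faible alone gave 4 and 0, and centring each of 48 spot blocks, an alternative chosen after seeing the data, gave 6 and 0. Leaving out each slide in turn gave 1 to 6 lower and 0 to 2 higher. At 6 h the counts, 4 and 1, were 0 and 2 as deposited, 2 and 0 on the faible readings, 0 and 0 with no orientation term, and 0 to 5 and 0 to 1 without a slide. As deposited, 1 gene was higher at 1 h, 1 lower at 2 h and 4 higher at 4 h, against 0 at each. In the difference of late from early times, quantile normalization gave 2 lower, and leaving out a slide 0 to 2, against 0. Over all genes the count in the mean, 587, was 1042 as deposited, 255 with no orientation term, 311 with slides averaged, and 241 to 814 without a slide. The readings titled fort and genes with a single spot kept all 7 calls in the mean and all 5 at 6 h, as did quantile normalization. The median of the 49 genes was -0.09 to -0.05 in the mean in all alternatives but the values as deposited, where it was 0.12. As deposited their late minus early median was 0.21, where that of all genes was 0.36. The cause of these shifts was not tested. A fit without 1 slide has 2 residual degrees of freedom. With 2 slides a time, single-time errors near 0.17 limit what can be called. No paired analysis was possible because the labels give no replicate numbers that slides of different times share.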

Other observations

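The 5 genes outside the set whose values over the 8 slides were most like the mean profile of the 49 genes were ERV15 (Pearson r = 0.98), TVP15 (0.979), GRX7 (0.971), TOM22 (0.956) and SRP21 (0.954). They were the highest of 3078 genes, all share the 8 slides and their orientations with the profile, and the values carry no test. ERV15, TVP15 and GRX7 had means over the 4 times of 0.08, -0.04 and 0.02 (limma, adjusted p of 0.492, 0.742 and 0.884), TOM22, a subunit of the outer membrane import pore, -0.21 (adjusted p = 0.102), and SRP21, of the signal recognition particle, -0.36 (adjusted p = 0.0175).

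A total of 8 spots named a gene of the rule together with others, and these were not used in the comparisons. The spot for MRPS18 and MCK1 had the lowest mean over the slides, -0.48, and was below 0 on 6 of 8, while the single-gene spot of MRPS18 gave 0.01. The spot for MRP21 and MAP2 had -0.27, against -0.15 for MRP21 alone, and that for RSM22 and RPS27A 0.15, against -0.10 for RSM22 alone. The 2 spots that named MRPL10 with YNL284C-A and YNL284C-B differed, at -0.19 and 0.24. The 3 spots that named MRP10 lay between -0.01 and 0.05.

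Of the 5 genes with 2 spots, the spot means over the slides were -0.01 and -0.06 for MRPL19, -0.10 and -0.04 for MRPL38, -0.05 and -0.17 for MRPL9, -0.07 and 0.03 for MRPS35, and -0.04 and 0.04 for RSM7. On single slides the 2 spots of a gene differed by up to 1.47, for MRPS35. Across the 49 genes the mean log2 ratio had a Pearson r of -0.10 with the log2 of gene length. Its Spearman rho with gene length was -0.14, and both are given as a description.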
